A study of Homo sapiens with 2 samples.

Results

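Among 10 genes of death receptor signalling, XAF1 and TNFRSF10D had the largest median differences over all probesets. The lines compared were the metastatic gastric cancer line MKN45P and its parent MKN45. XAF1 is an interferon-induced antagonist of the caspase inhibitor XIAP, and TNFRSF10D is a decoy receptor for the death ligand TRAIL. The median difference over the probesets of XAF1 was 4.05 in log2 units, or 16.5-fold higher in MKN45P, and that of TNFRSF10D was -2.08, or 4.21-fold lower. The other 8 genes were within 2-fold by this measure: the ligand TNFSF10, the receptors TNFRSF10A, TNFRSF10B, TNFRSF10C and FAS, the initiator caspase CASP8, its inhibitor CFLAR, and XIAP. The 10 genes were chosen by name with the differences between these same arrays already known, so their differences are given as a description and are not tested. They are 10 of 18923 gene symbols with probesets and all 10 were among the 13130 genes measured, which takes 4 or more probesets and a median level of 1.92 or higher. That level is the median of all 877986 probesets on the log2 scale, with both lines averaged.

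The study compared 2 human cell lines, MKN45 and a highly metastatic line derived from it, MKN45P, each on 1 exon array. Neither line carried a stated treatment. An exon array reads a gene at many places with small groups of probes, the probesets, so each of the 10 members has 8 to 21 values per line. With 1 array per line no difference could be set against variation between cultures, and ranges are between the probesets of a gene. The epithelial markers with probesets had median levels of 3.31 to 10.26 in MKN45, and of 3.13 to 10.74 in MKN45P. The 5 immune markers with probesets had levels of 1.66 to 2.69 in MKN45 and of 1.65 to 2.47 in MKN45P, with LYZ and TYROBP the highest and the defining markers PTPRC (1.66 and 1.65) and CD3E (1.79 and 1.84) near the low end of the scale. Fibroblast markers reached at most 2.62 in MKN45 and 2.86 in MKN45P, and endothelial markers 2.12 and 2.05.

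TRAIL, encoded by TNFSF10, and the FAS ligand kill cells by clustering receptors that carry an intracellular death domain: TNFRSF10A (DR4), TNFRSF10B (DR5) and FAS. The clustered receptors recruit an adaptor and procaspase-8, which activates itself and then sets off the caspase cascade, while CFLAR (c-FLIP) occupies the same complex and restrains it. TNFRSF10C (DcR1) and TNFRSF10D (DcR2) bind TRAIL without a working death domain and are known as decoys. Further down, XIAP binds and blocks active caspases, and XAF1 is known to bind XIAP and oppose it.

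**Figure D1:**
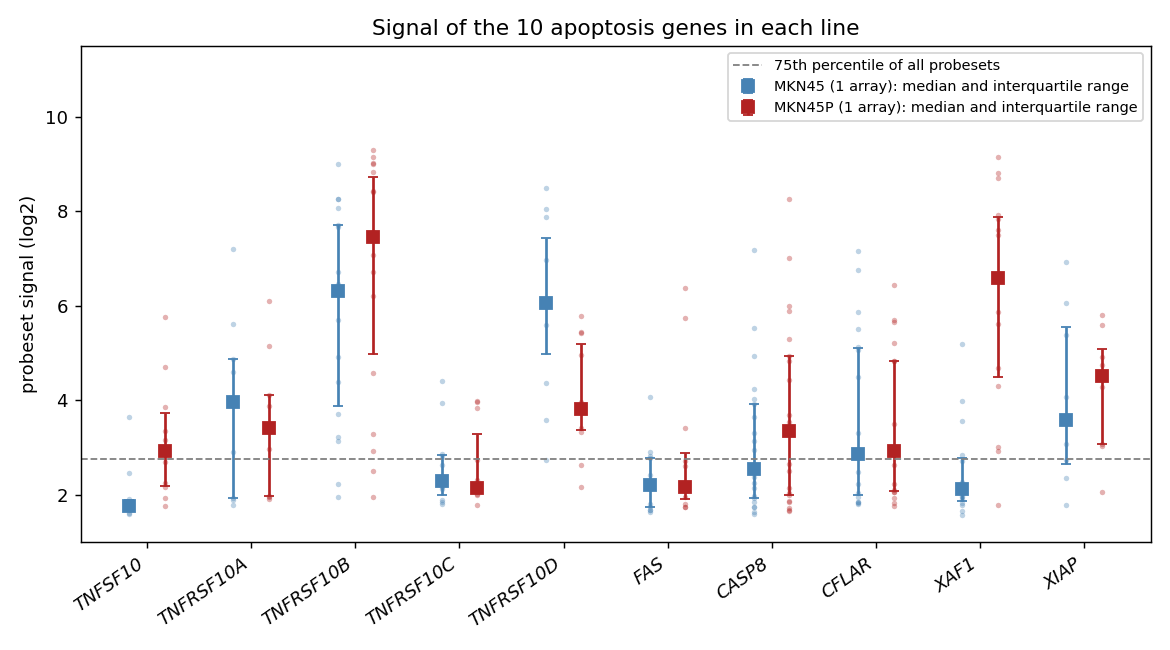
Signal of every probeset (log2, vertical axis) of the 10 genes in MKN45 and MKN45P, 1 array each; squares are medians over probesets, bars the interquartile range over probesets and the dashed line the 75th percentile of all probesets (2.77). The ranges of XAF1 and TNFSF10 lie higher in MKN45P, that of TNFSF10 in MKN45 (1.68 to 1.88) being near the low end of the scale. Those of TNFRSF10D (4.98 to 7.43 against 3.37 to 5.20) overlap narrowly, with MKN45P below.

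Among all measured genes, 4.58% stood 2-fold or more above MKN45 in MKN45P and 1.20% stood 2-fold or more below. Of the 10 members 1 was higher (XAF1) and 1 lower (TNFRSF10D). Since the genes were picked with this contrast known, nothing is read from those shares. Many probesets of the members had little signal. Probesets whose mean over both lines was at or above 2.77, the 75th percentile of all probesets, are called probesets with signal here. They were 81 of the 134 of the members, and in MKN45P 30 of the 81 passed 2-fold upward and 14 downward. Among all measured genes 17.4% of probesets with signal passed it upward and 7.83% downward. A probeset can hold signal through a single line, in which case it had to differ, so these counts describe the arrays and support nothing.

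TNFSF10, the gene of TRAIL itself, had almost no signal in MKN45 and had some at several probesets in MKN45P. In MKN45 8 of its 10 probesets lay between 1.60 and 1.91. The highest value in MKN45P was at probeset 2705713, with 1.91 in MKN45 and 5.76 in MKN45P. Probeset 2705710 had 1.80 and 4.71. Probesets 2705714 (1.70 and 3.34) and 2705725 (1.70 and 3.17) were also more than 2-fold higher in MKN45P. The probeset with the most signal in MKN45, 2705730, had nearly equal values of 3.65 and 3.86. The median difference was 0.56 (interquartile range 0.25 to 1.60), with 9 of 10 probesets higher, and it was 2.91 over the 3 probesets with signal. Of those 3, the pair 2705713 and 2705710 held signal only through MKN45P. The median of all its probesets in MKN45 (1.75) was under the level filter, which the gene passed through MKN45P.

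The RefSeq promoter of TNFSF10 is shown because the gene's signal lay mostly in MKN45P and because interferon is known to induce TRAIL. The stretch is the 250 bases before the gene's start, at chr3:172523431-172523680 on the minus strand of GRCh38.p14, 5′ to 3′, with a match to the core of the interferon-stimulated response element in capitals. The core searched was GAAANNGAAA on both strands, and the match, on the opposite strand, covers bases 64 to 73 of the stretch. The core occurs in 3.57% of the 35116 promoter windows of 300 bases in the table. The GAS core, TTCNNNGAA, was searched too, occurs in 7.66% of windows and has no match here. A match is a string of letters and was not tested as a binding site.
TNFSF10: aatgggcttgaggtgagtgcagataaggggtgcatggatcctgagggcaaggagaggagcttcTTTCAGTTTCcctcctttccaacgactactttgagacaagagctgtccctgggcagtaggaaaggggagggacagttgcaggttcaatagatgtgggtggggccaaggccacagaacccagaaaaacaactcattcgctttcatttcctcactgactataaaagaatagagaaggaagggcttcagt

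The death receptor TNFRSF10B had signal at 16 of 18 probesets, and 14 of these 16 were higher in MKN45P. Its median level was 6.30 in MKN45 (interquartile range 3.88 to 7.70) and 7.45 in MKN45P (4.98 to 8.73). At its brightest probeset, 3127716, the lines were close, with 8.99 and 9.30. At 3127722 the values were 4.39 and 6.72, at 3127714 they were 4.91 and 7.07, and at 3127706 they were 6.33 and 8.44. Those 3 probesets were more than 4-fold higher in MKN45P, whereas 3127723 had 6.27 and 6.20. The median difference was 0.81 (0.28 to 1.12), or 1.76-fold, the nearest to 2-fold among the 8 members within it. Of the 18 probesets 6 passed 2-fold upward and 0 downward. RHOBTB2, which overlaps it in RefSeq, differed by -0.09.

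TNFRSF10A, the other TRAIL death receptor, had probesets that differed in both directions. At 3127786, its brightest, the values were 7.21 in MKN45 and 6.10 in MKN45P. At 3127789 they were 5.60 and 3.88, at 3127784 they were 4.61 and 3.40, and at 3127793 they were 4.88 and 4.11. Probeset 3127787, numbered between those 4, went the other way, with 3.96 in MKN45 and 5.15 in MKN45P. The last of the 6 with signal, 3127780, was level at 2.91 and 2.97. Over all 9 probesets the median difference was 0.02 (-1.11 to 0.07), and over the 6 with signal it was -0.94 (-1.18 to -0.15). The median near 0 therefore stands for 3 probesets near the low end and for 6 with signal, of which 3 passed 2-fold downward and 1 upward.

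The decoy receptor TNFRSF10D was lower in MKN45P at all 11 of its probesets. The largest difference was at 3127748, with 8.04 in MKN45 and 3.41 in MKN45P. The brightest probeset in MKN45, 3127750, had 8.50 and 5.43, and 3127746 had 7.88 and 5.79. At 3127762 the values were 5.60 and 5.44, so that probeset, bright in both lines, hardly differed. The median level was 6.05 in MKN45 (4.98 to 7.43) and 3.82 in MKN45P (3.37 to 5.20). The median difference was -2.08 (-2.27 to -0.99), and 8 of 11 probesets were at least 2-fold lower. Of the 13130 measured genes, 0.16% had a lower value.

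The second decoy, TNFRSF10C, was near the low end in both lines and differed little. Its median levels were 2.30 in MKN45 and 2.14 in MKN45P, and 4 of 11 probesets had signal. The brightest, 3089818, had 4.40 and 3.95, and 3089827 had 3.93 and 3.98. Probeset 3089825 was the only one of its probesets past 2-fold, with 2.63 and 3.83. The median difference was -0.01 (-0.19 to 0.11). The 4 TRAIL receptor genes are known as relatives of similar sequence, so RNA of one may bind probes of another. That would make their probeset values uncertain. Their sequences were not compared here, and such binding was not tested.

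**Figure D2:**
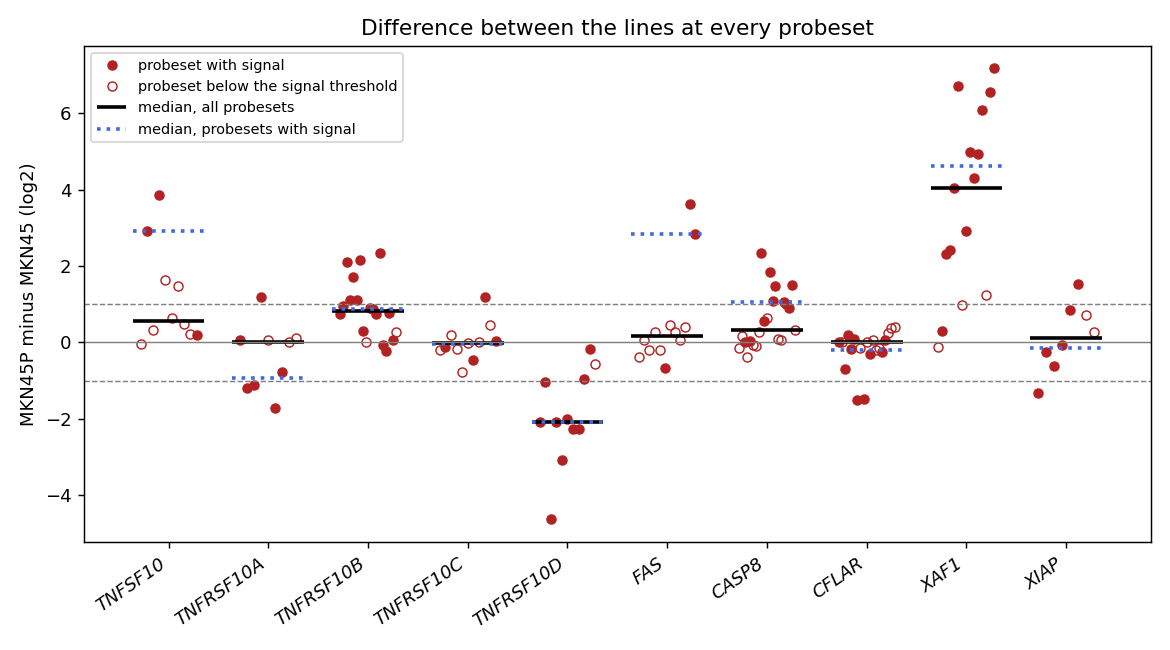
MKN45P minus MKN45 (log2, vertical axis) at each of the 134 probesets of the 10 genes; filled points are probesets with signal, open points lie below 2.77, solid bars are medians over all probesets and dotted bars medians over probesets with signal. Every probeset of TNFRSF10D lies below 0 and 14 of 15 of XAF1 above it, while FAS and TNFSF10 have a few points well above a group near 0.

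FAS, the receptor of the FAS ligand, differed at 2 of its 12 probesets and little at the rest. The pair with the highest numbers was far higher in MKN45P: 3257125 had 2.77 in MKN45 and 6.39 in MKN45P, and 3257126 had 2.90 and 5.75. The other 10 probesets differed by -0.66 to 0.47, with no value above 4.08 in MKN45 or 3.41 in MKN45P. The brightest of these, 3257117, was lower in MKN45P, with 4.08 and 3.41. The median difference of the gene was 0.17 (-0.20 to 0.42). Over the 3 probesets with signal it was 2.85, and only in MKN45P was any FAS probeset above 5.

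Of 18711 pairs of genes next to each other by probeset number on a chromosome, 98.0% had ascending starts in RefSeq. The numbers do not follow the chromosome throughout. TNFRSF10C, numbered from 3089801, comes after TNFRSF10B in RefSeq order, and TNFRSF10B is numbered from 3127704. Whether the numbers follow the exons within a gene was not checked, and the exons that the FAS probesets read are not used here. RefSeq places ACTA2, the smooth muscle actin gene, in overlap with FAS, and ACTA2 was itself 1.23 higher in MKN45P over 9 probesets. RefSeq also lists an antisense RNA gene within FAS and another within CFLAR. Further long noncoding RNA genes overlap XAF1, TNFRSF10C and CFLAR, and a transcribed pseudogene, TNFRSF10B-AS1, overlaps TNFRSF10B. The part of overlapping RNA in these values was not tested.

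**Figure D3:**
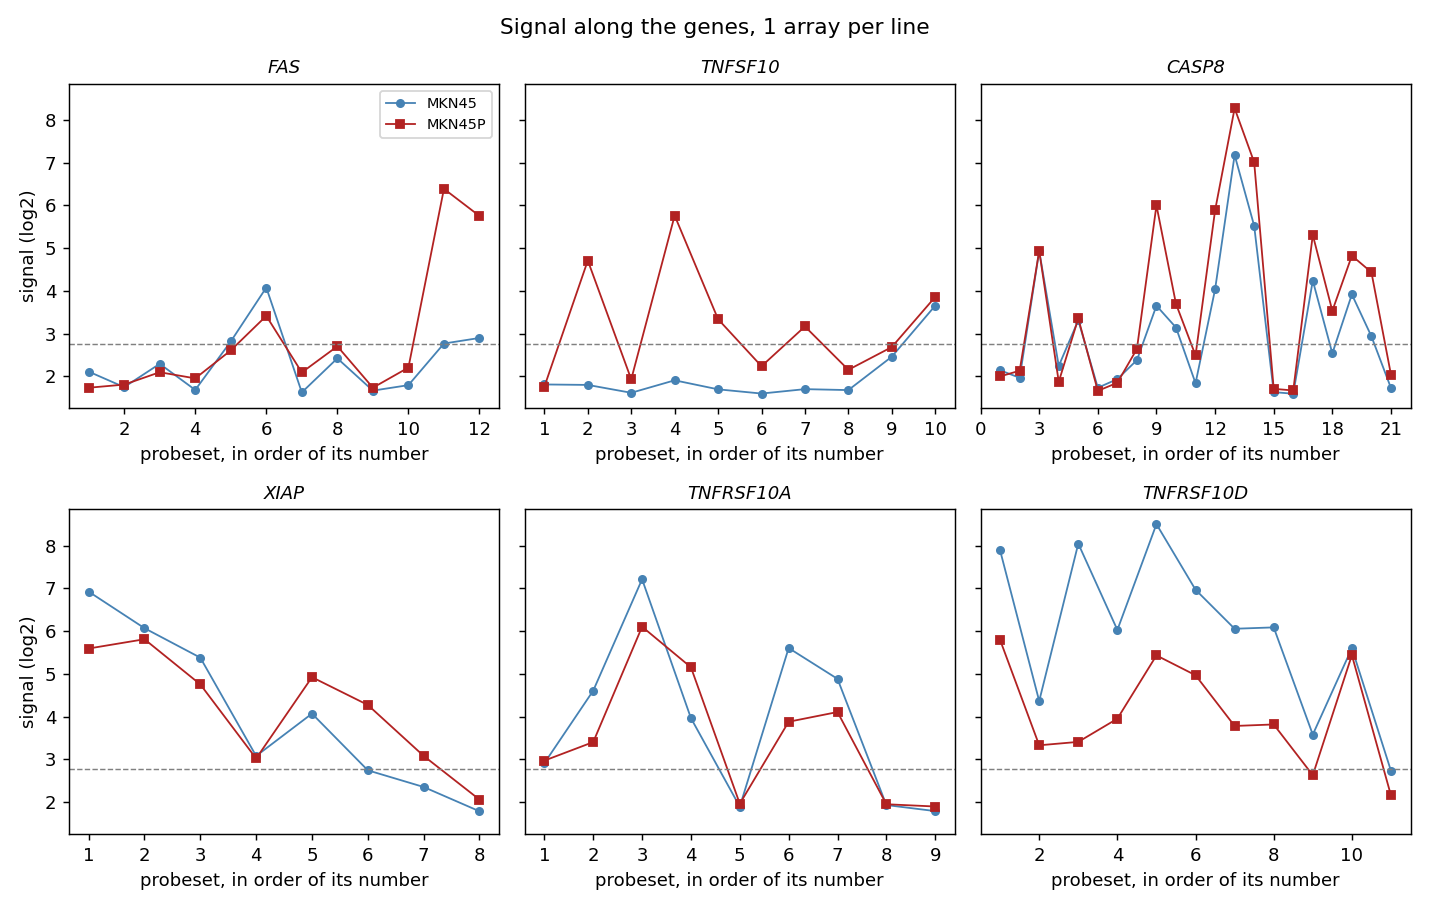
Signal (log2, vertical axis) of each probeset in order of its number (horizontal axis) for 6 of the genes in MKN45 and MKN45P, 1 array each; the dashed line marks 2.77. The widest gap of all is at probeset 3 of TNFRSF10D, and that of TNFSF10 is at its probeset 4. Within FAS the lines part most at probesets 11 and 12, and within CASP8 at several probesets from 9 on. In XIAP they part in opposite directions at the start and the end.

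CASP8, the initiator caspase of both receptor pathways, was higher in MKN45P along part of its probesets. Its brightest probeset, 2522758, had 7.18 in MKN45 and 8.27 in MKN45P. Probeset 2522759 had 5.52 and 7.01, 2522756 had 4.03 and 5.88, and 2522752 had 3.65 and 6.00. By number, the first 8 of its 21 probesets differed by -0.37 to 0.26 and the last 13 by 0.08 to 2.35. Both stretches held probesets with signal. In the first, 2522733 had 4.93 and 4.94 and 2522744 had 3.31 and 3.36, whereas in the second all 9 with signal were higher, by 0.55 to 2.35. That division was chosen after the values were seen. The median difference was 0.31 (0.05 to 1.07) over all probesets and 1.07 (0.73 to 1.49) over the 11 with signal.

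RefSeq lists 3 promoter windows for CASP8, and the first by position is printed because it holds matches to both motifs while its gene has probesets that differ and probesets that do not. The stretch runs from 250 bases before the start to 7 bases after it, at chr2:201233213-201233469 on the plus strand of GRCh38.p14. The capitals mark the GAS core at bases 51 to 59 and the response element core at bases 248 to 257. The latter matches on the opposite strand. The GAS core pattern reads the same on either strand, so every match to it is on both.
CASP8: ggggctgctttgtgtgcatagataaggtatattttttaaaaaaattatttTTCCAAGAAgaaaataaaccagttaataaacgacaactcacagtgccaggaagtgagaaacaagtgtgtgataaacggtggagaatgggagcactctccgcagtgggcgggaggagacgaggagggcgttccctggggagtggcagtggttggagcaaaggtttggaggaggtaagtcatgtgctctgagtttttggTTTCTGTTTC

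CFLAR, the inhibitor of caspase-8 in the receptor complex, was within 2-fold at most probesets and more than 2-fold lower in MKN45P at 2. Probeset 2522638, the brightest in MKN45, had 7.16 in MKN45 and 5.66 in MKN45P, and 2522643 had 4.49 and 3.02. Probeset 2522629 was lower by less, with 5.52 and 4.82. Probesets 2522646 (6.75 and 6.44), 2522633 (5.87 and 5.70) and 2522635 (5.14 and 5.21) were close in the 2 lines. The median difference was 0.01 (-0.22 to 0.08) over 19 probesets and -0.21 (-0.60 to 0.06) over the 10 with signal. No CFLAR probeset passed 2-fold upward.

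XAF1 ranked 13th from the highest of 13130 genes, and 12 of its 15 probesets passed 2-fold upward. The largest difference was at 3708096, with 1.98 in MKN45 and 9.15 in MKN45P. Probeset 3708084 had 2.11 and 8.82, and 3708095 had 2.15 and 8.71. The parental array was not at the low end everywhere: 3708080 had 5.18 and 7.51, and 3708083 had 3.56 and 7.60. The lowest-numbered pair hardly differed, with 1.91 and 1.79 at 3708075 and 3.99 and 4.30 at 3708076. The median levels were 2.11 in MKN45 (1.87 to 2.78) and 6.59 in MKN45P (4.50 to 7.88), and the median difference of 4.05 had an interquartile range of 1.78 to 5.54. At the 4 probesets that were at or above 2.77 in both lines the differences were 0.31 (3708076), 2.32 (3708080), 4.05 (3708083) and 4.98 (3708088).

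The 2 RefSeq promoter windows of XAF1 are printed because it is the member with the largest difference. Neither holds the GAAANNGAAA or TTCNNNGAA core within its 300 bases, which says only that those letters are not there. Each line gives the 250 bases before a start on the plus strand of chromosome 17, at chr17:6755197-6755446 and chr17:6755796-6756045 in GRCh38.p14. Of the 16 windows listed for 6 of the members, 2 hold the response element core, 1 each in TNFSF10 and CASP8, and 1 holds the GAS core.
XAF1, upstream start: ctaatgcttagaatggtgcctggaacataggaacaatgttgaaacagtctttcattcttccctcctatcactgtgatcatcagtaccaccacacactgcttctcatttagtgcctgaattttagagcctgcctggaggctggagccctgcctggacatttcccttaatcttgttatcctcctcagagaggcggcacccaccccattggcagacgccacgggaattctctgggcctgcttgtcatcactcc
XAF1, downstream start: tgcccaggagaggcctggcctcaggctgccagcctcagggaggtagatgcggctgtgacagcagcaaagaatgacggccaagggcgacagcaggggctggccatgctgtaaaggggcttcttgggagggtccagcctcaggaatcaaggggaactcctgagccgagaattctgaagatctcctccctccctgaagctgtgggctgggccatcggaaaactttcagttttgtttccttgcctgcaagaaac

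XIAP, the caspase inhibitor that XAF1 binds, had probesets that differed in opposite directions. The first 4 by number were lower in MKN45P and the last 4 higher, a division described after the values were seen. The brightest, 3989688, had 6.92 in MKN45 and 5.59 in MKN45P, and 3989697 had 5.38 and 4.75. Probeset 3989706 had 2.74 and 4.27, and 3989705 had 4.07 and 4.92. Those that were lower in MKN45P differed by -1.33 to -0.06 and those that were higher by 0.27 to 1.53. The median difference of 0.11 (-0.35 to 0.76) over 8 probesets lies between those groups, and over the 6 with signal it was -0.16.

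Taking medians over probesets with signal alone, 4 members passed 2-fold upward (XAF1 4.62, TNFSF10 2.91, FAS 2.85 and CASP8 1.07) and TNFRSF10D alone passed it downward (-2.08). By the same measure 10.6% of 12854 measured genes passed 2-fold upward and 3.62% downward, and the median over these genes was 0.03. Of the 81 probesets with signal in the members, 11 lay 2 or more log2 units from the median of their gene, 5 in XAF1, 2 each in TNFSF10 and FAS, and 1 each in TNFRSF10D and CASP8. Among all measured genes 1.69% of probesets with signal did so. The median of a gene here is over all its probesets, those without signal included. The members were picked with this contrast known, and a probeset can hold signal through a single line. Nothing is therefore read from these shares.

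Over 5 lists of 60 further genes, drawn up with earlier results of these data known, 50 genes were measured, 35 of them higher and 15 lower in MKN45P. Of all measured genes, 43.5% lay below the -0.01 of TNFRSF10C and 46.5% below the 0.01 of CFLAR. More genes were thus higher than lower there too, and nothing is read from such counts in the lists. In all, 1 list gene passed 2-fold upward and 1 downward, where 4.58% and 1.20% of all measured genes did. The median was 0.10 against 0.03 for all measured genes. The one that was higher is RBCK1 (HOIL-1), a subunit of the linear ubiquitin ligase that acts on death receptor complexes, whose level was 5.11 in MKN45 and 8.40 in MKN45P. Its difference was 2.46 (1.37 to 3.79), higher at 18 of 19 probesets. The lower one is BCL2L1, which encodes the survival protein BCL-xL and its shorter counterpart, with levels of 5.88 and 4.08. Its difference was -1.42 (-1.64 to -0.70), and all 14 probesets were lower.

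The remaining lists held smaller differences. Among 10 measured death receptors, ligands and decoys 6 were higher and 4 lower, none past 2-fold, with a median of 0.03; the largest were TNFRSF21 (DR6) at -0.78 and the TNF receptor TNFRSF1A at 0.66. Among 14 adaptors and regulators 9 were higher and 5 lower, with a median of 0.14. The 5 measured caspases and apoptosome genes, CASP10 (0.16) and CASP6 (0.16) leading, differed by 0.06 to 0.16. Among 7 IAP genes and antagonists 6 were higher, with BIRC6 at 0.60 and BIRC2 at 0.36 and a median of 0.19. Among 14 genes of the BCL2 family 9 were higher and 5 lower, BCL2L1 being the one past 2-fold, with a median of 0.19.

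**Figure D4:**
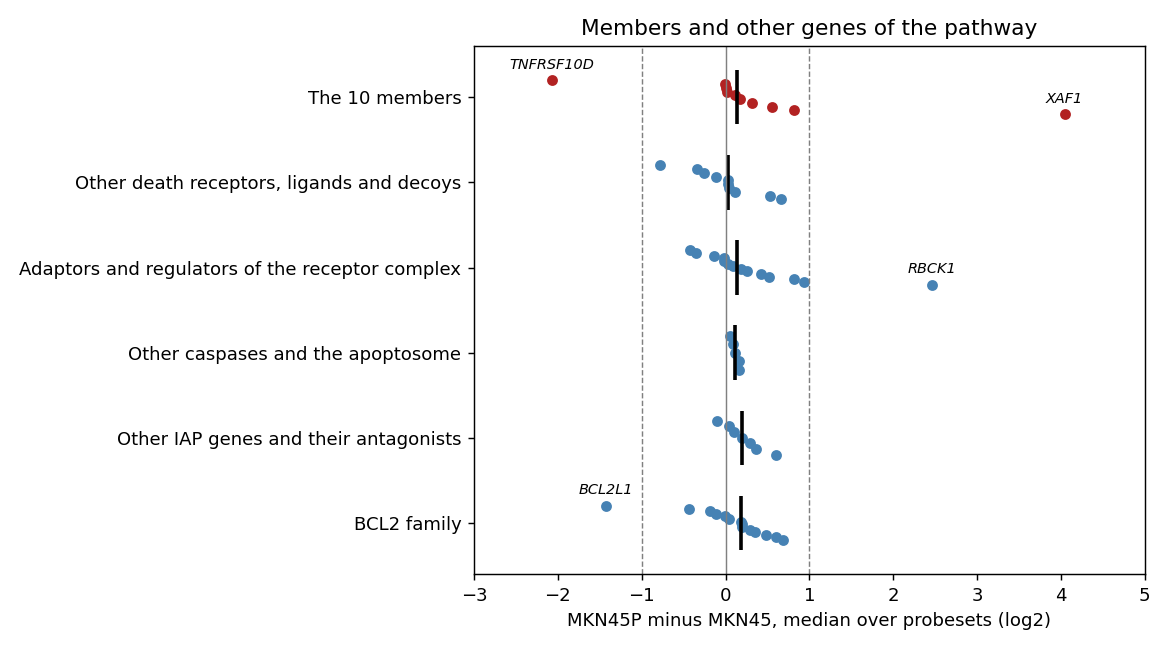
Difference between the lines (MKN45P minus MKN45, log2, median over probesets, horizontal axis) for the 10 members and for the 50 measured genes of 5 further lists of the pathway; vertical bars are list medians and dashed lines mark 2-fold. Outside the members only RBCK1 (2.46) and BCL2L1 (-1.42) lie past the dashed lines.

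In RefSeq order, TNFRSF10B, TNFRSF10C, TNFRSF10D and TNFRSF10A follow each other on chromosome 8 among the measured genes, with differences of 0.81, -0.01, -2.08 and 0.02. The 3 measured genes on either side of this cluster differed by -0.59 to 0.02. The 6 neighbours of XAF1 differed by -0.08 to 0.70. CFLAR, CASP10 and CASP8 are consecutive on chromosome 2, at 0.01, 0.16 and 0.31. Of 37 neighbours in all, 2 passed 2-fold upward and 1 downward, where 4.58% and 1.20% of all measured genes did. All 3 lie beside FAS on chromosome 10: ACTA2 (1.23) and the lysosomal lipase gene LIPA (1.10), which were higher, and ANKRD22 (-1.41), which was lower.

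The measured genes whose pair of levels lay closest to that of XAF1 were SLFN5 (1.90 in MKN45 and 6.46 in MKN45P), IL20RB (2.14 and 6.85) and SLC2A10 (2.40 and 6.74). Their distances from XAF1 were 0.25, 0.26 and 0.32 log2 units, over 2 arrays, so the likeness rests on a pair of values.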

How the data were processed

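Each line was profiled on 1 exon array. The authors deposited log2 values, 1 per probeset and array; that scale was read from the values, which run from 1.42 to 13.48. Per the submitters' processing notes Partek and hg18 were used; version, background correction, probe summary and normalization: not given in the sources used here, and the deposited values were used unchanged. Probesets with exactly 1 symbol in the platform annotation (286871) were kept. A gene's difference was the median over its probesets of MKN45P minus MKN45. The named genes were the 10 members, list genes past 2-fold or else the 2 largest of a list, neighbours past 2-fold and the 3 genes nearest XAF1 in level. The members and lists were chosen with earlier results of these data known. No detection call was used. No test was possible with 1 array per line, and the number of arrays limits the precision. RefSeq tables (GRCh38.p14) gave names, gene order and promoters; of 18923 symbols 18815 matched a gene, some through an older name. TNFRSF10A, TNFRSF10B, TNFRSF10C and TNFRSF10D had no promoter entry. Other scalings, gene summaries and filters were tried. Python 3.11.15, numpy 2.4.6, pandas 2.3.3, statsmodels 0.14.6 and matplotlib 3.10.9 were used, and the gene step was tested on simulated data.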

Additional observations from a re-analysis of the deposited data

How the results depend on the processing

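No paired analysis was possible because each line has 1 array. Over quantile normalization, median centring, loess, the mean of differences and the difference of median levels, XAF1 stayed at 3.66 to 4.49 and TNFRSF10D at -2.24 to -1.92. Probesets listed under older symbols added none to the members. With probesets with signal only, TNFSF10 was at 2.91 and FAS at 2.85, both larger in size than TNFRSF10D at -2.08. CASP8 was then at 1.07 and TNFRSF10A at -0.94, and 4 members were at least 2-fold higher. With the mean of differences 2 members were (XAF1 and TNFSF10, the latter at 1.17), and with the difference of median levels 3 were (XAF1, TNFSF10 at 1.18 and TNFRSF10B at 1.15). By median levels XIAP was at 0.94 and TNFRSF10A at -0.56. TNFRSF10D was the only member 2-fold lower in the settings tried. In the lists, the difference of median levels gave 1 gene at least 2-fold higher among the other receptors, 1 among the IAP genes and 1 in the BCL2 family, and 1 lower among the adaptors. Probesets with signal only gave 2 higher and 1 lower among the adaptors, 1 lower among the IAP genes and 1 higher in the BCL2 family. The share of all measured genes 2-fold higher was 4.91% with the mean of differences, 9.62% with median levels and 10.6% with signal only. The share 2-fold lower was 1.3%, 2.32% and 3.62% in the same order. Neither XAF1 nor TNFRSF10D, the members past 2-fold, changed sign in any setting, whereas 5 members with small differences did. TNFRSF10A was at -0.37 with the mean of differences and, as given above, negative by median levels and with signal only. CFLAR was at -0.02 with quantile normalization, -0.03 with loess, -0.18 with the mean of differences and -0.21 with signal only. XIAP was at -0.16 with signal only, FAS at -0.05 by median levels, and TNFRSF10C at 0.01 with median centring and with the mean of differences. How far differences near the low end of the scale track those in RNA was not tested.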

Other observations

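Probesets outside the rule gave few further values for these genes. The single probeset annotated to both FAS and STAMBPL1 had little signal, with 1.68 in MKN45 and 1.80 in MKN45P. Probesets with no symbol that are numbered between the first and the last of a member were 19 in CFLAR, of which 2 had signal and differed by -0.37 and -0.22. In TNFRSF10B 1 of 3 such probesets had signal and was lower in MKN45P, at -1.23, although the gene was higher at 16 of 18 named probesets. In FAS 1 of 6 had signal and differed by 0.44, in TNFRSF10A 1 of 3 by -0.93 and in XIAP 1 of 2 by 0.16. None of the 3 in XAF1, the 6 in TNFSF10, the 6 in TNFRSF10C or the 8 in CASP8 had signal, and no such probeset lay within TNFRSF10D.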
